A study of Homo sapiens with 16 samples.

Results

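The positions described here lie in nuclear-encoded messenger RNAs of oxidative phosphorylation. They were chosen as every listed position in a protein-coding gene outside the mitochondrial chromosome whose symbol starts with NDUF, UQCR, COX4, COX5, COX6, COX7, COX8, ATP5 or SDH. The rule used names only and took 11191 of 719918 distinct positions, 3708 at a uridine (U) and 7483 at another base, in 93 genes. Single tables held 553 to 4498 of them.

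Reverse transcriptase (RT) stops were read in polyadenylated RNA, cut to fragments of about 250 nt, from 3 cell populations: HEK293T, a line of human embryonic kidney origin, HCT116, a line from a human colorectal carcinoma, and HCT116 with a knockdown of DKC1 (HCT116-shDKC1). The 16 libraries formed 8 groups of 2 replicates. Wild-type HEK293T and wild-type HCT116 each had RNA left untreated (CMC-), RNA treated with the carbodiimide CMC (CMC+), and RNA treated with CMC and then listed with Terminator, an exonuclease specific for RNA that bears a 5′ monophosphate. The knockdown had CMC- and CMC+ with Terminator only. All groups carry the label terms RA3+ and DA3+, and the Terminator groups also carry AP5+ together with RE+ in HEK293T or XhoI in HCT116, which the labels do not explain, so a Terminator contrast holds those steps too. The knockdown is named after 1 short hairpin, shDKC1-1. Nothing in the labels says whether replicates came from separate cultures, so p-values measure only the spread between these samples, which may be technical.

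Oxidative phosphorylation takes place in the inner mitochondrial membrane. Complexes I and II pass electrons from NADH and succinate to ubiquinone, complex III passes them to cytochrome c, complex IV passes them to oxygen, and complex V (ATP synthase) uses the proton gradient that complexes I, III and IV build. Most subunits are encoded in the nucleus and translated in the cytosol. The CMC adduct that stays on pseudouridine blocks RT, and a CMC-dependent stop at a U is therefore read as a candidate pseudouridine. Stops at other bases serve here as the comparison. DKC1 encodes dyskerin, a pseudouridine synthase that small nucleolar RNAs guide.

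The sequences below are those on which the results turn: the 10 called U of HEK293T with the largest change, the called U of the HCT116 populations, and the 4 positions of other bases called in both lines. Each is 21 bases from the deposited tables, 5′ to 3′ along the transcript and written as DNA, with the base at the stop in capitals. The number after each gene is its hg38 position.
ATP5F1B 56644882: tactggattcTggtgcaccaa
COX4I1 85806879: aagtgagagaTgctggcctgc
ATP5F1B 56642817: cgctggtataTggtcaaatga
ATP5F1B 56642787: ctggtgctcgTgcccgggtag
ATP5F1B 56643565: gtgctggagtTggcaagactg
ATP5F1A 46089662: cgaatttcagTgcgggaacca
ATP5F1B 56643580: ttgggcttttTggtggtgctg
ATP5F1A 46086204: ttgctgctttTgcccagttcg
ATP5F1B 56640157: tgactgacccTgcccctgcta
NDUFV1 67611206: agaagcatgcTggtaaggcct
ATP5MC2 53665273: cgcgtctggtTggccccgtgt
COX6A1 120440554: tctggaccacTacccgggcac
NDUFS6 1815923: ctagagcgtgTggcacgccgg
ATP5MC2 53633003: tctggaaattTgccatgaagg
ATP5F1A 46098203: gctgcggccgTggtccgcgcc
COX4I1 85801235: ttagcctagtTggcaagcgag
ATP5F1B 56643481: gtgttggtgaGaggacccgtg
UQCRQ 132867587: aaatgagcaaCgcatccggat
ATP5F1B 56645310: caaaagcaggCgccgccaccg
COX6A1 120440559: accactacccGggcaccaggg
All 10 HEK293T U in this group are followed by G, as are 5 of the 6 of the HCT116 populations, where COX6A1 has an A. In HCT116 with Terminator, G followed 6 of 10 tested member U with a printed sequence. It followed 68.8% of called and 64.9% of tested U in other protein-coding genes there, and no difference was tested.

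Complex V gave 3722 positions in 20 genes and complex I 3706 in 38 genes. Complex IV followed with 1886 in 12 genes, complex III with 1340 in 9, and complex II with 254 in 4. The assembly factors were sparse, with 277 positions in 7 genes for complex I and 15 in 3 genes for complex II. ATP5F1B, the catalytic beta subunit of ATP synthase, alone held 1030 positions. It was followed by ATP5F1A, the alpha subunit, with 570, by UQCRC1, a core subunit of complex III, with 478, and by COX4I1, a subunit of cytochrome c oxidase, with 361. Next came ATP5MC3 (306), NDUFV1 (300), NDUFB10 (292), NDUFS8 (265), COX8A (242) and ATP5F1D (240). In all, 65 of the 93 genes had a position in every table. Genes with near-identical copies, such as the 3 ATP5MC genes and UQCRH, are uncertain, because reads of a copy may be split or shared. Each table held 0 to 31 members that share their 31 bases of printed sequence with a position outside the group, nearly all in processed pseudogenes.

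Library totals behind the authors' RPM (stop reads scaled to library depth) ran from 14904452 to 19063723 reads in HEK293T. In the Terminator tables of HCT116 and the knockdown they ran from 22493497 to 31261784 reads, and in the HCT116 tables without Terminator from 8653041 to 10230136 reads. Of 5 colorectal epithelium markers, 4 or 5 were listed in each HCT116 and knockdown table and 0 in HEK293T. Of 5 HEK293T markers, 2 or 3 were listed in each HEK293T table, while INA and PAX2 were not, and 1 PAX2 position appeared in a knockdown table. PTPRC, CD3E and COL1A1, markers of other cells, were listed in no table. DKC1 itself had 1 to 3 listed positions in each HCT116 and knockdown Terminator table, with median CMC- covering reads of 12.0 and 14 in wild type against 5.5 and 2.0 in the knockdown; this is no test of the knockdown. A position was listed only where its treated stop ratio was not below that of its control, so changes against CMC- point upward by construction. Tested positions met this rule in every table of their fit, which can also raise the changes and the counts past a threshold. Counts against CMC- are therefore set beside those of all positions tested, which the same rule selected.

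Stop percent is the share of the reads covering a position that stop there. Over members with at least 20 covering reads, the median stop percent at U in the HEK293T groups was 10.5 ± 1.25 for CMC alone and 11.3 ± 0.212 after Terminator (mean and SD of the medians of 2 replicates). At other bases it was 8.87 ± 1.38 and 8.78 ± 0.0636. In HCT116 the U medians were 11.7 ± 1.13 with CMC+ and 14.8 ± 0.636 with Terminator, and the medians at other bases were 10.8 ± 1.2 and 13.2 ± 0.495. In the knockdown with Terminator they were 13.6 ± 0.495 at U and 12.9 ± 1.91 at other bases. U was thus above other bases in each treated group mean, by less than either SD in HCT116 CMC+. In the knockdown the treated replicates went opposite ways. Replicate 1 had 13.9 at U against 14.3 at other bases, and replicate 2 had 13.2 against 11.6. The CMC- medians at the same positions were higher at U too. In HEK293T they were 6.31 against 4.97 in the tables of CMC+ and 6.11 against 4.78 in those of Terminator. In HCT116 they were 6.45 against 5.62 and 6.28 against 5.54, and in the knockdown 6.02 against 5.53. Whether treatment widened the gap between U and other bases was not tested. Over all other protein-coding positions, the HCT116 Terminator medians were 10.0 at U and 7.96 at other bases, and the HEK293T ones 13.1 and 10.1. These medians depend on the least covered positions, and in HEK293T with Terminator so does the order. With at least 50 covering reads the HEK293T Terminator medians were 9.12 at members' U against 8.57 at other protein-coding U, and 7.45 against 6.89 at other bases. The HCT116 Terminator medians were then 9.53 against 7.26 at U and 8.58 against 5.96 at other bases, so members stayed above there.

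In HEK293T, CMC alone moved no member past the threshold. Stop ratios were compared with edgeR's quasi-likelihood test, and a call needed both a change of 2-fold or more and an adjusted p below 0.05. Of 287 members listed in all HEK293T tables, 136 had enough stop reads to be tested: 85 U and 51 other bases in 40 genes, 43 of them in ATP5F1B. The 85 U gave 0 calls, with 8 at an unadjusted p under 0.05 and 0 calls with DESeq2, and a median log2 change of 0.49. The 51 other bases gave 0 calls, with 4 at an unadjusted p under 0.05. Over all 14825 positions tested, 1.4% were called, and over all U 3.39%. In other protein-coding genes 1 of 2803 U was called (0.0357%), so the members' 0 is the level of messenger RNA at large.

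The U with the smallest p was in ATP5F1B at chromosome 12, 56644882 (coding sequence, exon 3, nt 489 of the principal transcript). Its stop percent was 2.85 and 2.53 in the CMC- replicates, 7.96 and 11.3 in CMC+, and 11.6 and 12.2 in CMC+ with Terminator. CMC+ and CMC- did not overlap, with a log2 change of 1.73 ± 0.27 (SE) and an adjusted p of 0.142. The U 3 nt away, at 56644879, changed by 1.45 on the log2 scale and shares most of its reads. COX8A, a small subunit of complex IV, had a 5′ UTR position at chromosome 11, 63974660, with 9.23 and 4.83 percent in CMC-, 16.3 and 14.4 in CMC+, and 12.8 and 8.5 with Terminator. There the CMC+ libraries were highest and the Terminator libraries lay between, overlapping CMC-.

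Adding Terminator to CMC gave 17 called U of 85 against CMC- in HEK293T (20.0%), in 7 genes, with a median log2 change of 0.89 and a range from 0.06 to 1.97. Over all positions tested 12.3% were called, and over all U 17.8%. The other protein-coding U gave 502 of 2803 (17.9%), so the members' share is near the background. The members' other bases were called at 14 of 51 (27.5%) in 8 genes, against 513 of 3607 (14.2%) in other protein-coding genes; the difference was not tested. Both replicates of the Terminator group lay above both CMC- replicates at 74 of the 85 U. The listing rule already puts each treated library no lower than its own control, so no response is read from that count. The called share was thus lower at U than at other bases, a difference that was not tested.

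Complex V held most of the calls, with 13 of 53 U and 6 of 24 other bases. Complex I had 2 of 14 U and 3 of 12 other bases, complex IV 2 of 15 and 2 of 9, and complex III 0 of 3 and 3 of 6. The 3 in complex III include UQCR11 at 2 splice contexts with the same reads. No position of complex II or of the assembly factors could be tested. Of the 40 other oxidative phosphorylation genes set beside them (such as CYC1, SLC25A3 and VDAC1), 4 had tested U, with 7 of 26 called, and 2 of 19 other bases were called.

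ATP5F1B carried 9 of the 17 called U and 15 calls in all, from 43 tested positions with a median log2 change of 1.05. At 56644882 the change against CMC- was 1.97 ± 0.27 with an adjusted p of 0.00747, where Terminator and CMC- libraries did not overlap. At 56642817 (exon 6, nt 912) stop percent was 5.44 and 1.8 in CMC-, 12.6 and 7.67 in CMC+, and 10.6 and 17.1 with Terminator, a change of 1.88 ± 0.48 with an adjusted p of 0.0431. The CMC- replicates lay far apart there, and CMC+ and Terminator overlapped each other. At 56643580 (exon 5, nt 720) the values were 8.39 and 7.14, then 13.7 and 10.2, then 23.3 and 20.0 percent, in the same order of groups. Each group lay above the one before with no overlap, and the log2 change against CMC- was 1.5. Called positions of ATP5F1B lie up to a few nt from each other and share fragments, so they are not independent.

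ATP5F1A had 2 called U in coding sequence. At chromosome 18, 46089662 (exon 5, nt 676), stop percent was 7.79 and 6.95 in CMC-, 19.4 and 14.2 in CMC+, and 21.8 and 19.5 with Terminator (log2 change against CMC- 1.51 ± 0.17, adjusted p 0.0105). CMC+ and Terminator both lay clear of CMC-. At 46086204 (exon 10, nt 1460) it was 8.7 and 7.21, then 12.0 and 7.73, then 21.7 and 22.2 percent (1.46 ± 0.22, adjusted p 0.0218). Here CMC+ overlapped CMC- and only the Terminator libraries stood above both. The c subunit gene ATP5MC3 had called U at chromosome 2, 175181369 and 175181384, with log2 changes of 1.24 and 1.09.

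COX4I1 had the largest change of complex IV at a U, at chromosome 16, 85806879 (3′ UTR, exon 5, nt 585). Stop percent was 4.58 and 4.22 in CMC-, 6.49 and 5.6 in CMC+, and 14.2 and 20.1 with Terminator. The Terminator libraries stood apart from the other 4, with log2 changes of 1.95 ± 0.22 against CMC- (adjusted p 0.00189) and 1.52 ± 0.21 against CMC+ (adjusted p 0.0166). A cytidine of the same gene, at 85805833 (coding sequence, nt 412), had 4.4 and 4.42, then 6.58 and 8.51, then 19.2 and 17.4 percent, a change of 2.01 ± 0.21 against CMC- (adjusted p 0.00139). That change exceeded the change at each called U, by less than 1 SE in the closest case. COX8A had 1 called U, at chromosome 11, 63974682, with a log2 change of 1.10.

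NDUFV1, the flavin-binding subunit of complex I that takes electrons from NADH, had the highest stop percent of the U named in HEK293T, at chromosome 11, 67611206 (coding sequence, exon 6, nt 1065). It was 17.2 and 20.0 in CMC-, 17.9 and 30.0 in CMC+, and 55.3 and 42.3 with Terminator. The change against CMC- was 1.41 ± 0.29 (adjusted p 0.0259), and CMC+ overlapped CMC-. NDUFB8, an accessory subunit of the membrane arm, had 13 and 10.0, then 13.6 and 13.6, then 24.0 and 26.2 percent at chromosome 10, 100526548 (1.16 ± 0.14, adjusted p 0.00363). Both CMC+ libraries were close to CMC-, and both Terminator libraries were above them.

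Among other bases, UQCRQ, a small subunit of complex III, had a cytidine at chromosome 5, 132867587 (3′ UTR, exon 3, nt 395) that is 1 of the 2 members listed in all 10 tables. Its stop percent was 8.46 and 7.83 in CMC-, 8.51 and 7.86 in CMC+, and 21.5 and 22.1 with Terminator. CMC+ and CMC- nearly coincided there (log2 change 0.00), and Terminator gave 1.40 ± 0.15 against CMC- (adjusted p 0.00637). ATP5F1B had a guanosine at 56643481 (exon 5, nt 819) with 5.36 and 4.5, then 7.0 and 6.01, then 15.9 and 18.7 percent, a change of 1.83 against CMC-. NDUFB10, NDUFB4 and NDUFA13, accessory subunits of complex I, had called adenosines with log2 changes of 1.60, 1.30 and 1.55.

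The calls depended on scale and on single libraries. Without CMC- replicate 1, without CMC- replicate 2, without Terminator replicate 1 and without Terminator replicate 2 the 17 called U became 8, 0, 5 and 0, and they became 0 with TMM scaling of stop reads and 38 with library totals in place of covering reads.

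**Figure D1:**
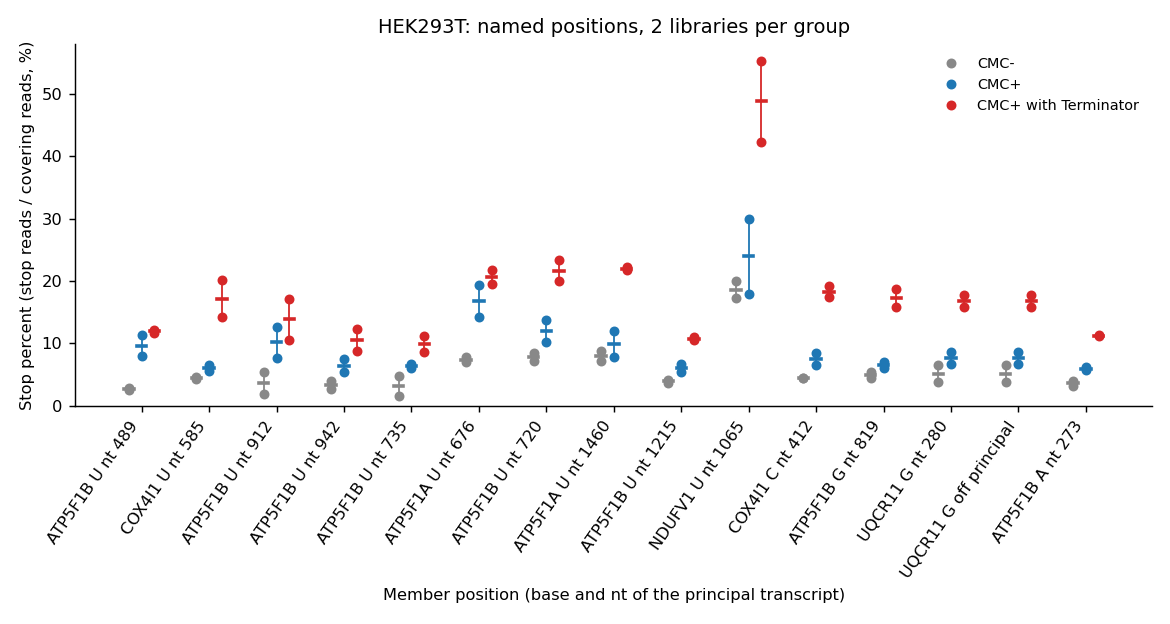
Stop percent (stop reads over covering reads) at the HEK293T positions with the largest called changes against CMC-, by base and nt of the principal transcript, with points for the 2 libraries of each group and a bar at their mean. The Terminator libraries lie above both CMC- libraries at each position drawn, U and other bases alike, and NDUFV1 reaches 55.3 percent. The positions were chosen as called higher, and the listing rule already puts each treated library no lower than its own control.

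Set against CMC+ in place of CMC-, Terminator gave 1 called U of 85, the COX4I1 site in its 3′ UTR, and 2 called other bases of 51, the guanosine of ATP5F1B at 56643481 (log2 change 1.47, adjusted p 0.00951) and the cytidine of UQCRQ (1.40, adjusted p 0.0316). Over all positions tested 0.897% were called, and over all U 1.25%, and 32 of 2803 other protein-coding U were called (1.14%). The count of members is near that background. The COX4I1 call was lost without CMC+ replicate 2, without Terminator replicate 1 and without Terminator replicate 2 (0 U called in each). It was also lost with TMM scaling, which called 1 other U higher and 2 lower.

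Calls were placed along the transcripts by the principal transcript of GENCODE 29 (hg38). With Terminator in HEK293T, 0 of 14 U in 5′ UTRs, 16 of 62 U in coding sequence and 1 of 5 U in 3′ UTRs were called. At other bases the counts were 0 of 14, 10 of 30 and 3 of 6. In other protein-coding genes 5.6% of 5′ UTR U were called (13 of 232), 18.9% of coding U and 19.5% of 3′ UTR U. At their other bases the shares were 2.27%, 15.7% and 18.1%. Counted by distance, 1 of 13 member U within the first 100 nt and 16 of 68 beyond them were called. For other protein-coding U the counts were 0 of 13 within nt 1 to 20, 7 of 117 within nt 21 to 100 and 479 of 2589 beyond (18.5%). For a few genes, ATP5MC3 among them, the principal transcript starts far upstream of the tested positions, so a large distance there need not be far from the start used in these cells.

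**Figure D2:**
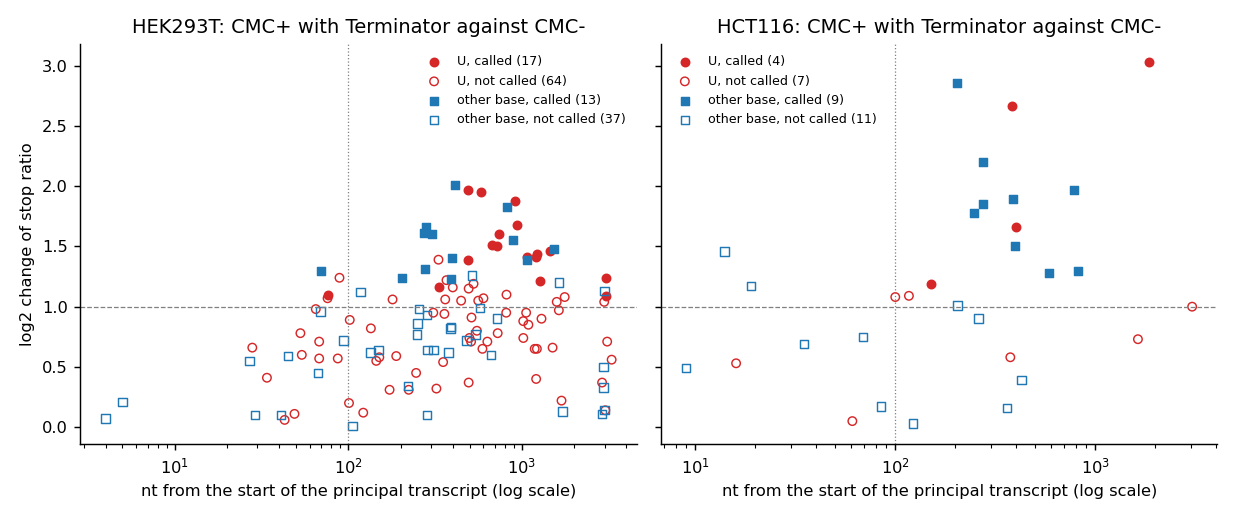
The log2 change of the stop ratio, CMC+ with Terminator against CMC-, against nt from the start of the principal transcript (log scale) in HEK293T and HCT116, with filled marks for called members, circles for U and squares for other bases. All but 2 of the called positions lie to the right of the dotted line at 100 nt, and positions outside exons are not drawn.

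All 17 called U in HEK293T were followed by G, against 66 of 79 tested member U with a printed sequence (83.5%). In other protein-coding genes G followed 383 of 497 called U (77.1%) and 1893 of 2700 tested U (70.1%). This count was chosen after its values were seen and was not tested. Among the members' other bases G followed 11 of 14 called (78.6%) and 36 of 46 tested with a printed sequence (78.3%), so the shares are alike. In other protein-coding genes it followed 353 of 508 called other bases (69.5%) and 2126 of 3494 tested (60.8%). The motif of the synthase PUS7 (TNTAA or TNTAG along the transcript, with the stop at its middle base) was found at 0 of the 79, against 0.852% of other protein-coding U. In HCT116 with Terminator it was found at 0 of 10 tested member U, against 0.677%. In HCT116 without Terminator 1 of 14 had it, against 1.18%. That U, in NDUFB4 at chromosome 3, 120596377, was not called.

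The start of the transcripts was covered more in Terminator libraries. In HEK293T, covering reads per library total at members within nt 21 to 100 were 1.67 and 1.42 times those of CMC- in replicates 1 and 2 (median of 37 positions), and 0.997 and 0.914 times beyond nt 100 (242 positions). The 3 members within nt 1 to 20 had 2.55 and 2.58 times. Other protein-coding positions gave 2.09 and 1.95, 1.55 and 1.4, and 1.1 and 0.924 in the same order. HEK293T CMC+ without Terminator gave 0.756 to 0.98 at members in all 3 windows. In HCT116 the members' ratios were 3.81 and 4.1 (4 positions), 3.79 and 3.17 (6) and 0.881 and 0.775 (46), and in the knockdown 3.85 and 3.48, 3.68 and 3.46, and 0.859 and 0.907. At the few members in the first 20 nt the median ratio was therefore above 2 in each Terminator library and below 1 in each HEK293T CMC+ library. In HCT116 CMC+ without Terminator it was 1.21 and 1.05 there (4 positions). In that group it was 0.989 and 0.98 within nt 21 to 100 (37) and 1.03 and 0.988 beyond (236).

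ATP5F1C, the gamma subunit of ATP synthase, shows it at nt 5 in HEK293T: scaled coverage (covering reads on the RPM scale) was 4.38 and 4.7 in CMC- and 11.1 and 12.5 with Terminator, while stop percent was 5.99 and 8.15 against 7.69 and 8.58. COX4I1 shows it at nt 16 in HCT116, with a scaled coverage of 2.46 and 2.59 in CMC- and 10.0 and 8.75 with Terminator. In both genes the Terminator libraries lay above CMC- with no overlap. How far this shift in coverage moves the called stop ratios was not tested.

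**Figure D3:**
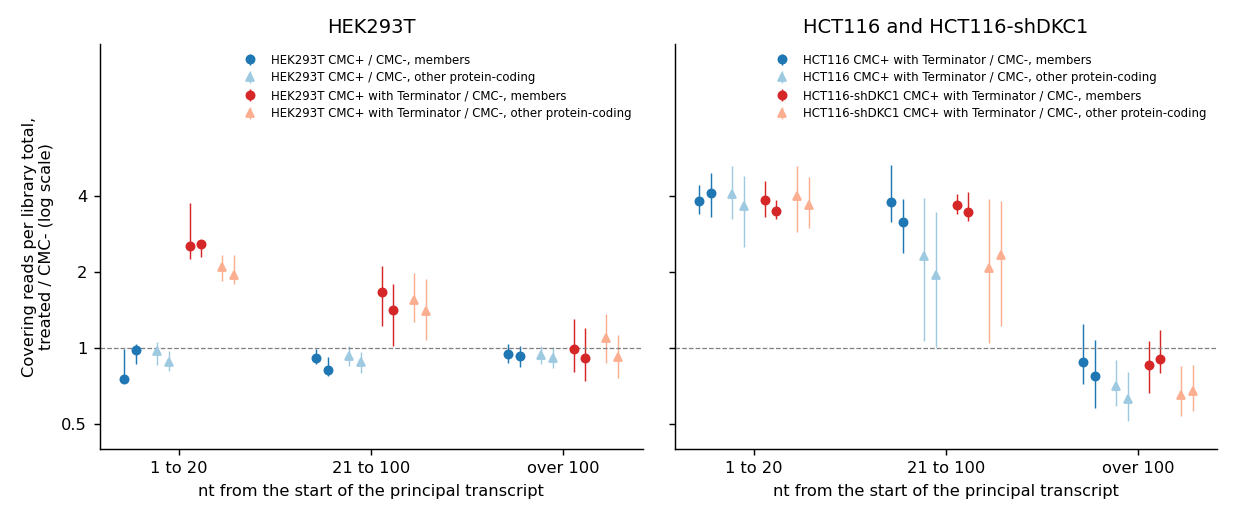
Ratio of covering reads per library total, treated over CMC- (log scale), at members (circles) and other protein-coding positions (triangles) in 3 windows from the transcript start, each mark the median of 1 replicate with its quartiles. Terminator libraries lie above 1 in the first 100 nt and near or under 1 beyond, while HEK293T CMC+ lies near or under 1 throughout. HCT116 CMC+ without Terminator is not drawn.

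In HCT116, 60 members were listed in all Terminator tables of wild type and knockdown, and 35 could be tested (13 U and 22 other bases in 20 genes). CMC with Terminator gave 5 called U of 13 (38.5%) in 4 genes, with a median log2 change of 1.08, and 9 called other bases of 22 (40.9%) in 6 genes. Over all positions tested 24.9% were called, and over all U 27%. Other protein-coding positions gave 36.6% at U and 41.0% at other bases, so the members' shares are those of messenger RNA at large. In the knockdown the counts were 3 of 13 U (23.1%) and 9 of 22 other bases (40.9%), against 19.7% of all positions, 21.9% of all U, 29.8% of other protein-coding U and 32.8% of their other bases.

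The largest U change was in ATP5MC2, a c subunit gene, at chromosome 12, 53665273 (3′ UTR, exon 6, nt 1848). Stop percent was 5.13 and 1.79 in wild-type CMC-, 37.5 and 21.1 in wild-type Terminator, 1.85 and 5.17 in knockdown CMC- and 23.3 and 11.4 in knockdown Terminator. Treated and control libraries stayed apart in both genotypes, with log2 changes of 3.03 ± 0.49 (adjusted p 0.000159) and 2.18 ± 0.51 (adjusted p 0.00643). The wild-type control rests on 3 stop reads, which gives a ratio of 9.34 with a 95% interval from 2.82 to 48.6 for counting error only. The gene also had a called U outside the exons of the principal transcript, at 53633003, with a log2 change of 1.63 in wild type and 0.88 in the knockdown.

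COX6A1, a subunit of complex IV, had a called U at chromosome 12, 120440554 (3′ UTR, exon 3, nt 384). It was 2.6 and 3.85 percent in wild-type CMC-, 23.9 and 18.8 with Terminator, and in the knockdown 9.26 and 2.6 against 16.7 and 13.3. The change was 2.67 ± 0.45 in wild type (adjusted p 0.000199) and 1.29 in the knockdown (adjusted p 0.0611). The knockdown control replicates differed widely from each other. The guanosine 5 nt on, at 120440559, had 7.79 and 8.64 against 30.2 and 31.7 percent in wild type, and 5.94 and 7.95 against 27.5 and 28.9 in the knockdown, changes of 1.89 and 2.00.

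NDUFS6, a zinc-binding subunit of complex I, had a called U at chromosome 5, 1815923 (3′ UTR, exon 4, nt 400). Stop percent was 16.1 and 7.89 in wild-type CMC-, 48.5 and 28.6 with Terminator, 9.68 and 30.3 in knockdown CMC- and 55 and 56.2 with Terminator. The groups stayed apart within each genotype, with changes of 1.66 ± 0.38 (adjusted p 0.0044) and 1.39 ± 0.33 (adjusted p 0.00822). COX4I1 had a U called in the knockdown and not in wild type, at 85801235 (coding sequence, nt 100), with 10.3 and 3.64 against 30.0 and 19.4 percent there and 13 and 7.04 against 27.5 and 15.4 in wild type.

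ATP5F1A at chromosome 18, 46098203 (coding sequence, exon 1, nt 151) is the other member listed in all 10 tables. In wild-type HCT116 it had 14.8 and 8.41 percent in CMC- and 27.9 and 22.9 with Terminator, a change of 1.19 ± 0.25 (adjusted p 0.00894). In the knockdown it had 10.0 and 10.8 against 13.7 and 16.7. In HEK293T the values were 10.0 and 7.01 in CMC-, 12.2 and 9.21 in CMC+ and 12.7 and 13.6 with Terminator, a change of 0.58 with an adjusted p of 0.292. All treated libraries of the Terminator groups lay above their own controls, by less in HEK293T and the knockdown. The listing rule already requires that none lies below its control.

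Among other bases, UQCRC1 had the highest treated level, at chromosome 3, 48604709 (a cytidine in coding sequence, nt 786). It was 17.6 and 9.38 against 56.2 and 54.5 percent in wild type and 8.7 and 6.67 against 58.6 and 45.5 in the knockdown, with changes of 1.97 and 2.69. ATP5F1B at 56645865, a guanosine in exon 1, had 1.25 and 4.49 against 25.9 and 19.2 in wild type and 5.71 and 6.19 against 13 and 18.2 in the knockdown, with changes of 2.86 and 1.40.

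Counts of so few positions moved with single libraries. The wild-type count of 5 U was 3 without wild-type CMC- replicate 1, 2 without CMC- replicate 2, 2 without either Terminator replicate and 3 without knockdown CMC- replicate 1, and the knockdown count of 3 was 1 without knockdown CMC- replicate 1 and 1 without knockdown Terminator replicate 1. With DESeq2 the counts were 2 in wild type and 0 in the knockdown, with library totals 9 and 9, and with TMM 7 and 7, where 3 of the 5 and 2 of the 3 were among the calls.

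**Figure D4:**
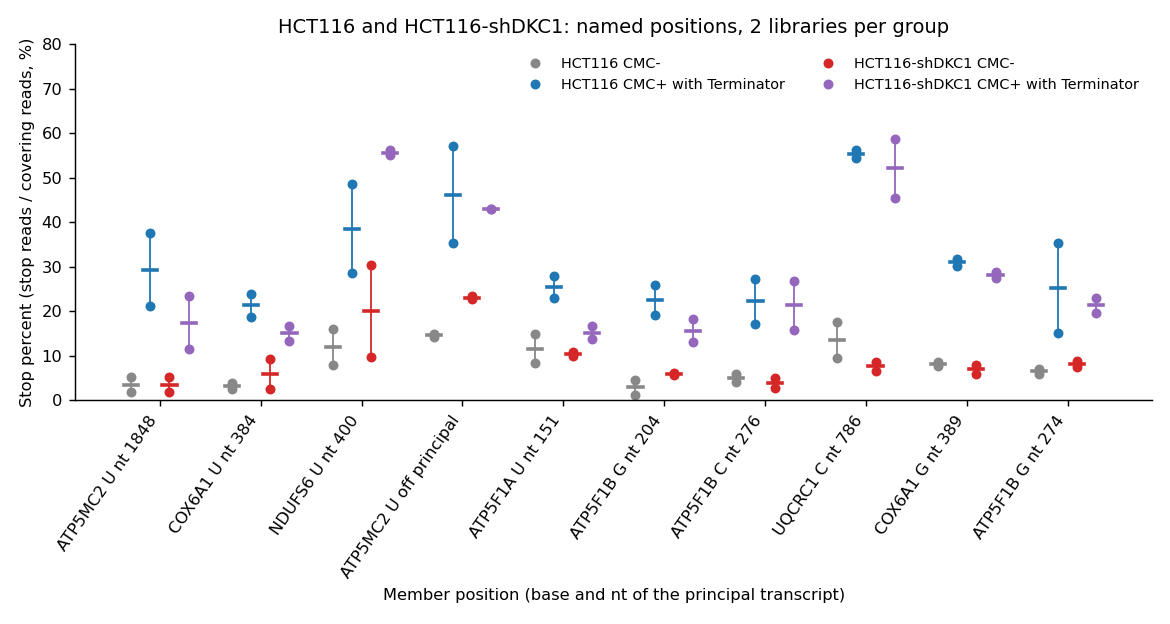
Stop percent at the named positions of HCT116 and HCT116-shDKC1, by base and nt of the principal transcript, with points for the 2 libraries of each group and a bar at their mean. Terminator libraries lie above the controls of their own genotype at each position drawn, and reach 58.6 percent at UQCRC1. The listing rule already puts each Terminator library no lower than its own control.

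Whether the response to CMC with Terminator differed between the knockdown and wild type was tested as an interaction. Of 13 U, 0 were called in either direction with edgeR, with a median log2 difference (knockdown minus wild type) of -0.34, and of 22 other bases 0 were called, with a median of 0.13. Over all positions tested 0% were called higher in the knockdown and 0.0115% lower. The largest differences below 0 were -1.46 for the guanosine of ATP5F1B at 56645865 (unadjusted p 0.0863), -1.38 ± 0.62 for the U of COX6A1 (unadjusted p 0.121), and the largest above 0 was 1.09 ± 0.53 for an adenosine of COX5B at chromosome 2, 97647379 (unadjusted p 0.175). The U of ATP5F1A at 46098203 had -0.63 (unadjusted p 0.315) and the U of COX4I1 at 85801235 had 0.82 ± 0.53 (unadjusted p 0.335). A site called in only 1 genotype is thus not shown to differ between them.

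Without Terminator, 21 members of HCT116 could be tested, 15 U and 6 other bases in 12 genes. CMC gave 0 calls at U, with 2 at an unadjusted p under 0.05 and 0 with DESeq2, a median log2 change of 0.38, and 0 calls at other bases. Over all positions tested 1.65% were called, and over all U 4.45%. The U with the smallest p was in NDUFA13, at chromosome 19, 19526244, with 7.69 and 9.76 percent in CMC- and 22.1 and 24.7 in CMC+. The libraries did not overlap, with a log2 change of 1.43 ± 0.20 and an adjusted p of 0.252.

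With Terminator, 4 U and 5 other-base members could be tested in both lines. Of the U, 1 was called in HEK293T (ATP5MC3 at 175181369), 2 in HCT116 (NDUFS6 and ATP5F1A at 46098203) and 0 in both. Of the other bases, 5 were called in HEK293T, 4 in HCT116 and 4 in both. Those 4 were the guanosine of ATP5F1B at 56643481, with log2 changes of 1.83 in HEK293T and 1.30 in HCT116, the cytidine of UQCRQ with 1.40 and 1.5, the cytidine of ATP5F1B at 56645310 with 1.31 and 2.20, and the guanosine of COX6A1 with 1.23 and 1.89. Of other protein-coding positions tested in both lines, 83 of 462 U (18%) and 90 of 425 other bases (21.2%) were called in both, and over all positions 21.3% of U and 7.5% of other bases. With 4 U and 5 other bases, some a few nt apart, nothing is read from the members' counts.

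Transcript level was approached through the CMC- libraries, by adding up each gene's covering reads at positions listed in every Terminator table of HCT116 and the knockdown. The listing rule selected those positions by their treated stop ratio. Nearby positions share fragments, so a sum can count the same read more than once. These are bulk cultures, so fewer cells with a transcript and less RNA per cell cannot be told apart. Of 28 member genes tested, 0 were called in the knockdown against wild type with edgeR, 2 had an unadjusted p under 0.05 and 0 were called with DESeq2. Over all genes tested 0.139% were called higher and 0.556% lower. The log2 changes ran from -0.60 to 0.26, with 20 genes below 0 and 8 above. Their median was -0.17, against 0 over all 2158 genes tested, of which 154 had an unadjusted p under 0.05 with edgeR. Whether the member genes differed from the other genes was not tested. ATP5F1B, with 798 and 912 covering reads in wild type and 854 and 909 in the knockdown, changed by -0.02.

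The lowest changes were those of ATP5MC1 (-0.60), NDUFS8 (-0.59, unadjusted p 0.0385), an iron-sulfur subunit of complex I, and UQCRC1 (-0.40). COX4I1 had -0.35 ± 0.16 (unadjusted p 0.036). COX5A (0.26), ATP5MC2 (0.25) and NDUFA4 (0.19) were highest. For 14 of the 28 genes the level rests on 1 position, so it is a proxy. With the replicate number as a block 1 of the 28 was called lower, beside 122 of all 2158 genes lower and 37 higher.

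**Figure D5:**
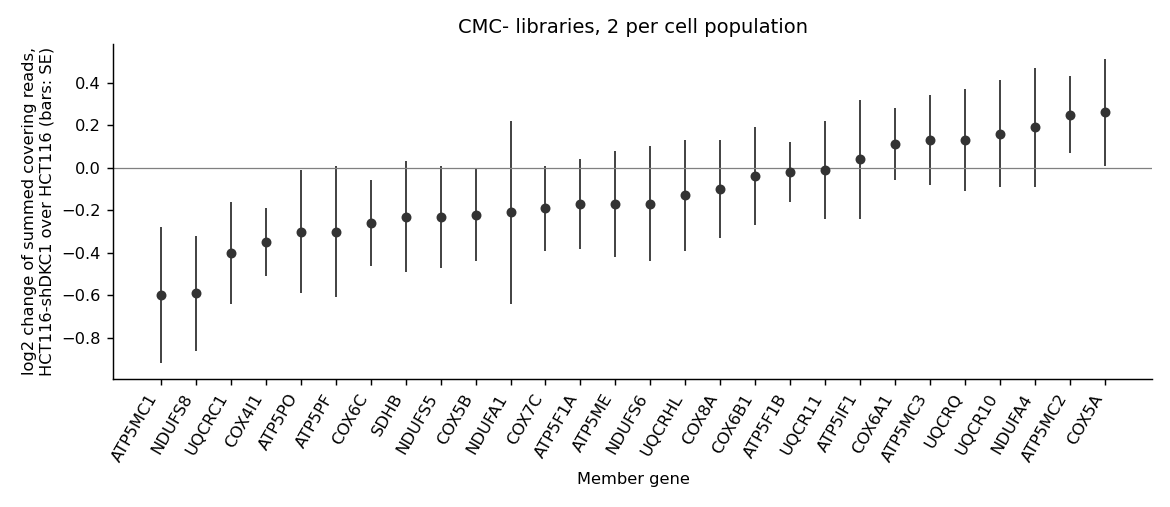
The log2 change in transcript level, HCT116-shDKC1 against HCT116 in CMC- libraries, for the 28 member genes tested, with bars of 1 SE. Changes run from -0.60 to 0.26 and none was called.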

How the data were processed

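Each of the 10 tables pairs a treated library with a CMC- control. The submitters' processing notes name cutadapt 2.8, STAR (its version is not given in the sources used here) and hg38. Per the file headers, every position has a number of stop reads and of covering reads, and the deposited values are whole-number counts in the Terminator tables of HCT116 and the knockdown. In the other tables the deposited values are expected counts with fractions, which were rounded for the tests. Stop reads as RPM, also deposited by the authors, served only to recover library totals. From the values, a position was listed with 5 or more treated stop reads, 1 or more in the control, and a treated ratio no lower than the control's. Control columns of the HCT116 tables without Terminator hold fewer reads than those of its Terminator tables and were tested only within their own tables.

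Stop reads were tested with edgeR 4.0.16 in R 4.3.3 (glmQLFit, glmQLFTest), with the logarithm of covering reads as offset, at positions listed in every table of a fit where 2 or more libraries had 10 or more stop reads. Benjamini-Hochberg adjustment ran over every tested position, U and other bases, of a comparison. Replicate number was a block, because the series design text pairs the CMC- and CMC+ samples of each replicate. Same-numbered libraries' deviations correlated at 0.35 (CMC- and CMC+), 0.1 and 0.06 (Terminator with CMC- and with CMC+) in HEK293T, 0.16 in HCT116, 0.33 in the knockdown and 0.57 in HCT116 without Terminator. Transcript levels used TMM and no block. The fit was also run on simulated counts, drawn with a fixed dispersion and without the listing rule. That run therefore does not show error rates for positions selected by the rule. Regions come from GENCODE 29 principal transcripts.

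The members and gene lists were chosen with earlier results of these data known. Positions were named by rule: called U ranked by log2 change, up to 10 per comparison, those with under 4 control stop reads named with a counting interval if in the top 3, filled to 5 by unadjusted p where fewer were called; up to 5 called other bases; for transcript levels the calls and the 3 highest and 3 lowest; the 10 genes with most positions; and members listed in all 10 tables. Other positions described were picked after their values were seen. Alternatives were library totals, TMM, DESeq2 1.42.0, no count filter, no block and leaving out each library. Intervals cover counting error only, since reads carry no molecular identifiers. The printed SE can be narrower than counting error, as at NDUFA13 in HCT116 without Terminator. Calls rest on the adjusted p and the size of the change.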

Additional observations from a re-analysis of the deposited data

How the results depend on the processing

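Counts are of members' U called higher unless said. In HEK293T with Terminator against CMC- the count was 17, and became 38 with library totals, 0 with TMM, 0 with DESeq2 (which gave no adjusted p for 15 of the 17) and 0 to 18 when 1 library was left out. Against CMC+ it was 1, and became 22 with library totals, 3 with TMM (1 higher and 2 lower), 0 with DESeq2 and 0 to 1 when 1 library was left out. In HCT116 with Terminator it was 5, and became 9 with library totals, 7 with TMM (3 of the 5 among them), 2 with DESeq2, 9 with no filter and 2 to 5 when 1 library was left out. In the knockdown it was 3, and became 9 with library totals, 7 with TMM, 0 with DESeq2, 9 with no filter and 1 to 3 when 1 library was left out. TMM moved the median log2 change over all positions from 0.53 to 0.03 in HEK293T with Terminator against CMC- and from 0.64 to -0.04 in HCT116, so it removes the shift shared by all positions. Without the replicate block the HEK293T count stayed at 17. With a replicate block, 1 of 28 member genes was called lower in transcript level, against 0, while the calls over all 2158 genes went from 12 to 122 lower and from 3 to 37 higher. The cause of the other moves was not tested.

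With at least 50 covering reads the median stop percent at U was 8.54 in HEK293T CMC+, 9.12 in HEK293T with Terminator, 9.25 in HCT116 CMC+, 9.53 in HCT116 with Terminator and 8.21 in the knockdown. At other bases it was 7.45 in HEK293T with Terminator, 8.41 in HCT116 CMC+, 8.58 in HCT116 with Terminator and 8.0 in the knockdown. With no minimum it was 12.0 and 9.16 (U and other bases) in HEK293T with Terminator, 17.6 and 16.1 in HCT116 and 15.8 and 15.6 in the knockdown. Over the named sites no change of direction occurred. Over all settings that kept every library, 38 calls were lost, 3 were gained and 244 outcomes stayed the same. The unchanged outcomes include named sites that were not called in the main fit, so they do not measure how steady the calls were. Settings that left out a library are not in these counts. Against CMC- the listing rule points changes upward by construction, so a kept direction says little there. Median coverage of members was 37.0 to 78.1 reads per table column.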
